A study of Mus musculus with 2 samples.

Results

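*Crem*, *Nfil3*, *Vps37b*, *Rgs1*, *Rgs2*, *Rgs16*, *Pde4b*, *Pde4d* and *Ramp1* are genes of cyclic AMP (cAMP) signaling, of G protein shutdown and of early lymphocyte activation. These 9 genes were picked by symbol from the 32589 genes listed for both single-cell libraries. Earlier results of the same libraries were known when they were picked, so the ratio between the libraries took part in the choice and is given here as a description. In CD8-gated T cells, 5 of the 9 genes had a level in anti–PD-1 at least 2-fold that in PBS, as did 1.83% of all genes that met the expression limits given below. These were *Crem*, *Nfil3*, *Vps37b*, *Rgs16* and *Pde4b*. *Ramp1* was the 1 gene at least 2-fold lower (1.01% of all genes), and *Rgs1*, *Rgs2* and *Pde4d* lay between these limits.

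Both libraries came from tumor-bearing livers of shYT mice, labelled as cholangiocarcinoma (CCA). In shYT mice, doxycycline switches on shRNAs in the whole body that target *Yap1* and *Wwtr1*, which encode YAP and TAZ, because the ubiquitous CAG promoter drives the rtTA3 activator. Tumors were started by hydrodynamic tail vein injection of plasmids for NICD, the active part of a Notch receptor, and for myr-AKT, a membrane-bound AKT kinase. Doxycycline began on day 25 and livers were analysed on day 33 in both groups. The first group, PBS, received the carrier. The second, anti–PD-1, received antibody clone RMP1-14 against the T cell checkpoint receptor PD-1 on days 26, 29 and 32. There was 1 library per group, so no difference between the groups could be tested against the spread of replicates, and every interval below covers counting error only. The labels do not give the shRNA line or the sex of the animals. The study counts several replicates per group without tying them to cells or libraries. Each library was therefore taken as 1 sample.

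G protein–coupled receptors that act through Gs switch on adenylyl cyclase, which makes cAMP. cAMP activates protein kinase A, which phosphorylates CREB-family factors bound at cAMP response elements (CREs), and in T cells the pathway is known to restrain activation. Phosphodiesterases of the PDE4 family break cAMP down again, CREM isoforms such as ICER repress CRE-driven genes, and RGS proteins end G protein signals by speeding GTP hydrolysis on the G alpha subunit.

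*Rgs2* and *Nfil3* are shown with their promoters because CRE half-sites, the letters TGACG or the complement CGTCA, lie there before every annotated transcribed base. Promoter entries in RefSeq (GRCm38.p6) were read for 6 of the 9 genes, in 9 windows of 250 bases before to 50 after a start. No window was read for *Crem*, *Vps37b* or *Rgs1*, so the promoters of these genes are not described here. The *Rgs2* stretch is chr1:144004162-144004399 and the *Nfil3* stretch is chr13:52981074-52981289, both on the minus strand, written 5′ to 3′ up to the first annotated transcribed base, with half-sites in capitals.
Rgs2: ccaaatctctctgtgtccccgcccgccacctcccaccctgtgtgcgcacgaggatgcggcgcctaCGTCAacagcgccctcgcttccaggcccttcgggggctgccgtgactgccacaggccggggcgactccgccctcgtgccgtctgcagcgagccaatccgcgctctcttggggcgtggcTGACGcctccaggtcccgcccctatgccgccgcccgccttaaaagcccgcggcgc
Nfil3: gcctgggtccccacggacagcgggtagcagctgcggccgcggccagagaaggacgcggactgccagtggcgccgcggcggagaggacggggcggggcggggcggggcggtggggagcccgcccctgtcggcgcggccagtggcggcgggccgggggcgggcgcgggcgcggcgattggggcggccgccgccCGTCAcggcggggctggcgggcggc
The *Rgs2* stretch of 238 bases held 2 half-sites, which began 185 and 67 bases before the RefSeq start of the window. The *Nfil3* stretch of 216 bases held 1, which began 59 bases before the RefSeq start. Each stretch ends short of that start, because the first exon in the GENCODE annotation begins further upstream. *Ramp1* had 1 half-site after its start, 1 of 4 *Pde4b* windows had 1 that began 34 bases before its start, within bases that GENCODE has as exon, and the *Rgs16* and *Pde4d* windows had 0. On both strands, 20.8% of 32851 RefSeq promoter windows held TGACG, so its presence is common. None of the 9 windows held the full CRE TGACGTCA, which contains the half-site and occurred in 1.79% of windows, or the AP-1 letters TGANTCA (7.81% of windows). The letters TTANNTAA, of the kind that NFIL3 and related bZIP factors bind, occurred in 1 *Pde4b* window and in 6.0% of all windows. A match describes letters in a window and does not show a bound site.

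After limits on detected genes and mitochondrial UMIs, 15531 PBS cells and 16360 anti–PD-1 cells were kept, with medians of 3159 and 2990 UMIs (unique molecular identifiers, each standing for 1 captured transcript). A cell was given the class with most of 6 marker genes detected, with exceptions given below, and none of the 9 genes was a marker. The tumor and biliary epithelial class held 1940 PBS and 1354 anti–PD-1 cells. Its markers are shared by tumor and bile duct, so the 2 were not told apart, and the labelled tumor was not checked by a transcript of its own. Levels are in counts per 1000000 UMIs (CPM). The libraries stood apart in sex-linked RNA. Kept cells held 18452 UMIs of *Xist* and 3113 of 4 Y-linked genes in PBS, against 11 and 15323 in anti–PD-1, so PBS held both kinds of UMI and anti–PD-1 almost only Y-linked ones, and treatment cannot be told apart from this difference. Ratios are given again where it matters for Y-linked cells, meaning cells with a Y-linked UMI and no *Xist* UMI. These ratios rest on fewer PBS cells than the main ones and are given without an interval. Markers of other cell types inside a class differed too, and whether they came from free RNA or from doublets was not tested. In CD8-gated T cells, the summed level of the 6 neutrophil markers was 154 CPM in PBS and 748 CPM in anti–PD-1, and that of the epithelial markers was 316 and 149 CPM, with all 6 of each list detected. Barcode sequences shared by the libraries numbered 219, which was 1.13% of each.

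The comparison of treated with untreated tumors asks how the PD-1 antibody was accompanied by changes in gene expression in YAP/TAZ-depleted tumors. CD8-gated T cells, with a UMI of *Cd8a* or *Cd8b1*, numbered 1053 in PBS and 1555 in anti–PD-1, and 59 (5.60%) and 55 (3.54%) of them passed the T cell gate by the lowest margin. Levels are UMIs summed over the cells of a class, in CPM of that class. The log2 ratio is anti–PD-1 over PBS of CPM + 5, and a gene was past the fold at 1 or more in either direction, among genes with a mean of at least 5 CPM and 20 UMIs in all. All 9 genes met these limits in CD8-gated T cells. Of the 9993 genes that did, 2.84% were past the fold, 1.83% in the higher and 1.01% in the lower direction, and their median log2 ratio was −0.10. The median over the 9 genes was 1.03, and since this contrast was used to pick them nothing is read from it. Over the 18 classes of at least 50 cells in each library, the share of genes past the fold ran from 2.29% in Kupffer cells to 12.4% in plasmacytoid dendritic cells (pDCs), the smallest class.

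**Figure D1:**
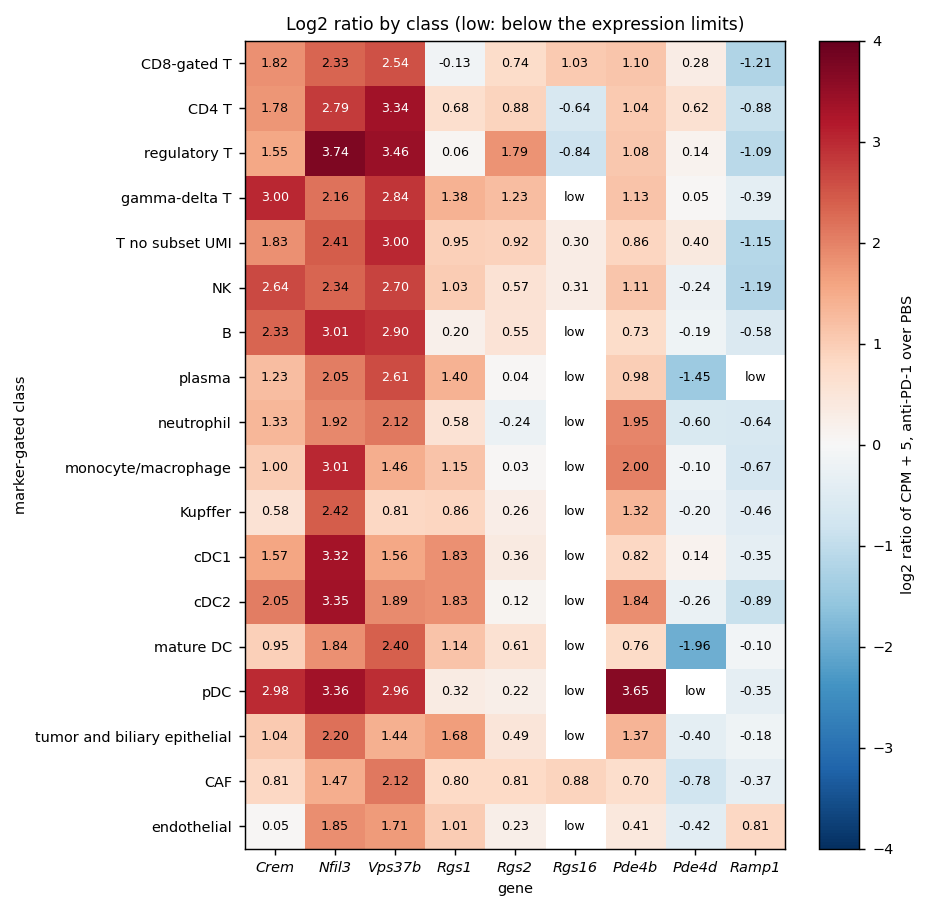
Log2 ratio (anti–PD-1 over PBS, CPM + 5, color scale) of each of the 9 genes (columns) in 18 marker-gated classes (rows), 1 library per group; white cells marked low were below the expression limits. *Nfil3* was past the fold in all 18 classes and *Vps37b* in 17, whereas *Ramp1* was negative in every class shown with a value except endothelial cells (0.81).

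*Crem* encodes CREM, a CRE-binding factor whose short isoforms repress cAMP-driven transcription (ENSMUSG00000063889, GRCm38 chr18:3266048-3337748, minus strand). Its level in CD8-gated T cells was 42.5 CPM in PBS (165 UMIs) and 163 CPM in anti–PD-1 (1342 UMIs), a log2 ratio of 1.82 (95% Poisson interval 1.61 to 2.04). The 2 counting intervals did not overlap. Among T cells without CD8 UMIs, *Crem* was highest in regulatory T cells in PBS, at 120 CPM, and reached 361 CPM in anti–PD-1. γδ T cells, gated by *Trdc*, went from 49.4 to 431 CPM and gave the highest ratio by value, 3.00 (2.26 to 3.80), on 14 and 137 UMIs. NK cells stood at 59.2 and 395 CPM, and B cells at 40.5 and 225 CPM. *Crem* was past the fold in 14 of 18 classes and below it in Kupffer cells (0.58), CAFs (cancer-associated fibroblasts, 0.81), mature dendritic cells (0.95) and endothelial cells. In endothelial cells, 92.5 and 95.8 CPM were not distinguishable (0.05, −0.37 to 0.45). Monocytes/macrophages were at the limit with 1.00, and their ratio was 0.66 in Y-linked cells. Neutrophils (36.6 and 99.8 CPM, 1.33) were at 0.92 without cells that held markers of another lineage and at 0.93 after thinning to 1000 UMIs per cell. In Y-linked CD8-gated T cells, 84 in PBS and 907 in anti–PD-1, the ratio was 1.17. *Crem* exons overlap *Gm6225* on the other strand, and with strand handling not stated, reads from the 2 cannot be told apart.

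*Nfil3* encodes a basic leucine zipper repressor required for NK cell and innate lymphoid cell development, whose half-site was shown above (ENSMUSG00000056749, chr13:52967209-52981073, minus strand). It was past the fold in 18 of 18 classes. CD8-gated T cells had 22.9 CPM in PBS (89 UMIs) and 136 CPM in anti–PD-1 (1118 UMIs), a log2 ratio of 2.33 (2.07 to 2.60). Regulatory T cells had the largest ratio by value, 3.74 (3.26 to 4.23), from 24.3 to 386 CPM. B cells had 9 UMIs in PBS and 376 in anti–PD-1, which is 3.69 and 64.8 CPM. Neutrophils held the highest level in both libraries, with 105 and 411 CPM, followed in anti–PD-1 by regulatory T cells, and the intervals of these 2 classes overlapped there (398 to 425 and 352 to 422 CPM). Monocytes/macrophages had 31.6 and 290 CPM, a ratio of 3.01 (2.92 to 3.10). The lowest ratio, 1.47, was that of CAFs. Neutrophils of the 2 libraries fell largely into different clusters (cluster 11 with 1114 PBS and 41 anti–PD-1 cells, cluster 2 with 115 and 2732). Monocytes/macrophages did likewise (cluster 1 with 3106 PBS and 145 anti–PD-1 cells, cluster 10 with 87 and 1235), so ratios within these 2 classes compare different cell clusters. Both libraries were clustered together without batch integration. Whether such a split reflects different cells or a shift between the libraries was not tested. In Y-linked CD8-gated T cells the ratio was 2.55.

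*Ramp1* encodes a single-pass accessory protein that pairs with the calcitonin receptor–like receptor to form the Gs-coupled receptor for the neuropeptide CGRP (ENSMUSG00000034353, chr1:91179822-91225196, plus strand). It ran opposite to *Crem* and *Nfil3*. CD8-gated T cells had 107 CPM in PBS (417 UMIs) and 43.7 CPM in anti–PD-1 (360 UMIs), a log2 ratio of −1.21 (−1.40 to −1.02). Regulatory T cells (155 and 69.9 CPM), T cells with no subset UMI (202 and 88.3 CPM) and NK cells (50.6 and 19.4 CPM) were also past the fold in the lower direction. CD4 T cells were just short of it, with −0.88. The pDCs had the highest level in both libraries, 288 and 225 CPM, and those intervals overlapped. Monocytes/macrophages (−0.67) and neutrophils (−0.64) were short of the fold. The neutrophil ratio was −1.66 in Y-linked cells, which is past the fold, and −0.16 without cells that held markers of another lineage. The 1372 PBS neutrophils held 139 Y-linked UMIs in all, so the first of these values rests on few PBS cells. Tumor and biliary epithelial cells had 89.2 and 78.4 CPM, with an interval that reached 0. Their ratio turned to 0.65 in Y-linked cells and to 0.12 with classes from clusters, which held fewer anti–PD-1 epithelial cells. Endothelial cells were the 1 class with an interval above 0, at 14.7 and 29.6 CPM on 40 and 17 UMIs. In 11 of 18 classes the interval lay below 0. In Y-linked cells the ratio was −2.56 in CD8-gated T cells, −0.75 in T cells without a CD8 UMI and −0.80 in NK cells, so the last 2 were no longer past the fold there. The NK cell ratio was −0.43 when each cell was thinned to 1000 UMIs. In CD8-gated T cells that had to hold both *Cd8a* and *Cd8b1* UMIs the *Ramp1* ratio was −0.87, short of the fold.

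**Figure D2:**
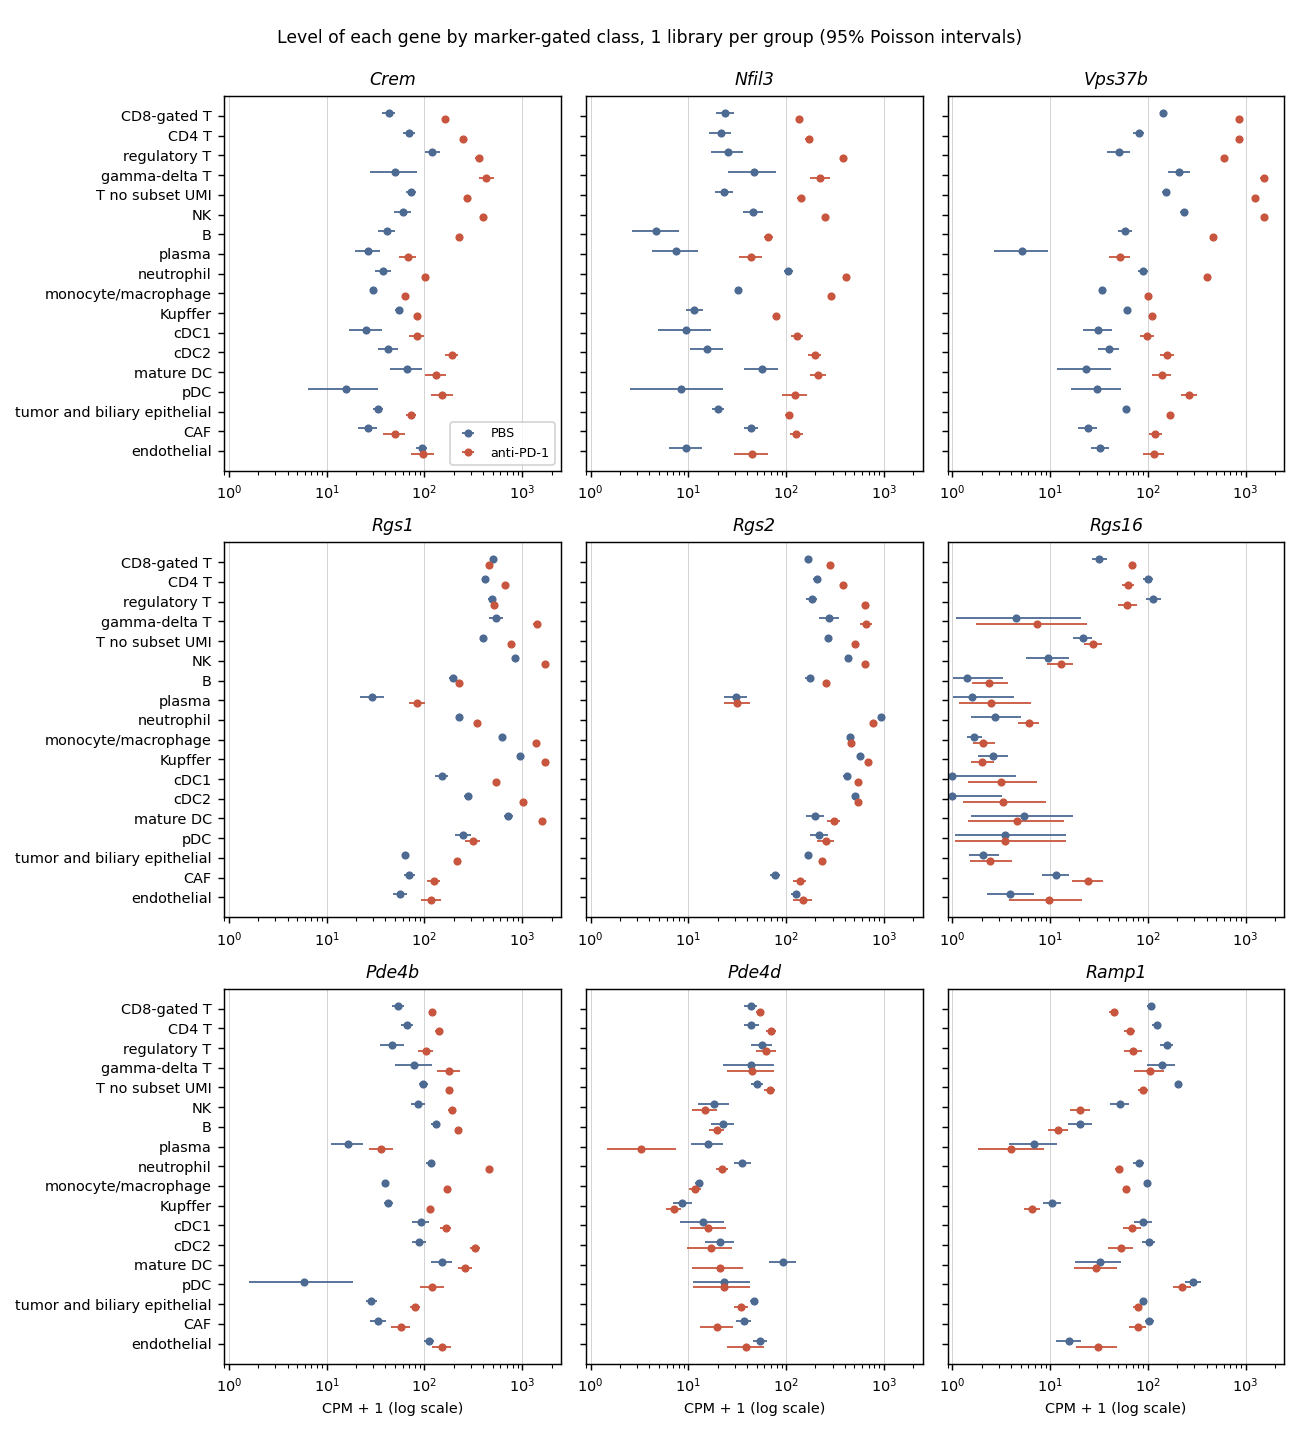
Level of each of the 9 genes (CPM + 1, log scale) in 18 marker-gated classes, with blue points for PBS and red points for anti–PD-1 and bars for 95% Poisson intervals, 1 library per group. For *Nfil3* and *Vps37b* the red point lies to the right in all 18 classes. *Rgs16* is below the expression limits in 12 of 18 classes, most of them outside T cells.

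*Pde4b* and *Pde4d* encode cAMP-specific phosphodiesterases that lower cAMP. They differed from each other. *Pde4b* (ENSMUSG00000028525, chr4:102087543-102607259, plus strand) had 52.8 CPM in PBS (205 UMIs) and 119 CPM in anti–PD-1 (981 UMIs) in CD8-gated T cells, a ratio of 1.10 (0.90 to 1.31). Its interval lay above 0 in 18 of 18 classes, and 11 were past the fold. Some myeloid classes had larger ratios than CD8-gated T cells. Neutrophils went from 115 to 458 CPM (1.95), monocytes/macrophages from 38.4 to 169 CPM (2.00), and conventional type 2 dendritic cells (cDC2) from 87.5 to 327 CPM (1.84). The ratios of cDC1 (0.82) and mature dendritic cells (0.76) were smaller. The pDC ratio of 3.65 (2.38 to 4.57) rested on 2 and 49 UMIs. B cells were highest after mature dendritic cells in PBS (129 and 150 CPM, overlapping intervals) and reached 219 CPM in anti–PD-1, short of the fold at 0.73. In Y-linked CD8-gated T cells *Pde4b* was at 0.98, just under the limit.

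*Pde4d* (ENSMUSG00000021699, chr13:108449948-109953461, plus strand) had 42.5 and 52.7 CPM in CD8-gated T cells, a ratio of 0.28 (0.05 to 0.52), and was past the fold in the higher direction in 0 of 17 classes that met the limits. The intervals of CD8-gated T cells, CD4 T cells and T cells with no subset UMI lay above 0, with at most 0.62 in CD4 T cells (43.3 and 69.2 CPM). In 5 classes the interval lay below 0. Mature dendritic cells went from 91.7 to 19.9 CPM (−1.96, −2.81 to −1.12) on 41 and 11 UMIs, and plasma cells from 14.8 to 2.24 CPM (−1.45, −2.05 to −0.64) on 25 and 3 UMIs. Neutrophils (34.8 and 21.3 CPM), tumor and biliary epithelial cells (46.0 and 33.7 CPM) and CAFs (36.0 and 18.8 CPM) were lower in anti–PD-1 by less than 2-fold. In neutrophils the ratio turned from −0.60 to 0.11 in Y-linked cells. In tumor and biliary epithelial cells it turned from −0.40 to 0.27 with classes from clusters, which held fewer anti–PD-1 epithelial cells. The pDCs, with 9 UMIs in each library, were below the limits.

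*Rgs1*, *Rgs2* and *Rgs16* encode small RGS proteins with little beyond the RGS domain. *Rgs1* and *Rgs2* lie near each other on chromosome 1 with *Rgs13* between them, and *Rgs16* lies farther along beside *Rgs8*. *Rgs1*, which dampens chemokine receptor signals and thereby cell migration (ENSMUSG00000026358, chr1:144242296-144249242, minus strand), had 504 CPM in CD8-gated T cells in PBS (1959 UMIs) and 461 CPM in anti–PD-1 (3800 UMIs), a ratio of −0.13 (−0.21 to −0.05), and this sign changed with the processing: it was 0.00 with scaling by the median ratio over genes, 0.14 with cells thinned to 1000 UMIs and 0.39 in Y-linked cells. Other lymphocytes varied. NK cells had 839 and 1717 CPM (1.03, and 0.81 in Y-linked cells, short of the fold) and γδ T cells 544 and 1421 CPM (1.38). CD4 T cells (0.68) and B cells (0.20) were short of the fold, and the interval of regulatory T cells included 0 (0.06, −0.10 to 0.23). The highest ratios by value were 1.83 each in cDC1 (149 and 543 CPM) and cDC2 (281 and 1014 CPM). Kupffer cells, the resident liver macrophages, held the highest level in both libraries (951 and 1726 CPM), and in anti–PD-1 their interval overlapped that of NK cells. Tumor and biliary epithelial cells, at 63.0 and 213 CPM, gave 1.68. Over the alternatives, the ratio of this class ran from 1.21 in Y-linked cells to 2.09 without cells that held markers of another lineage. In that class, the summed neutrophil markers were 232 CPM in PBS and 920 CPM in anti–PD-1 and the Kupffer markers 91.7 and 460 CPM, with all 6 of each list detected. The pDC markers were at 12.6 CPM in PBS (6 of 6 detected) and 714 CPM in anti–PD-1 (5 of 6). Their part in the result was not tested.

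*Rgs2* encodes an RGS protein that acts on Gq and also dampens Gs signaling, and its promoter carried the 2 half-sites shown above (ENSMUSG00000026360, chr1:143999338-144004161, minus strand). CD8-gated T cells had 167 CPM in PBS (650 UMIs) and 283 CPM in anti–PD-1 (2330 UMIs), a ratio of 0.74 (0.62 to 0.86). The fold was passed in regulatory T cells (182 and 642 CPM, 1.79) and γδ T cells (276 and 654 CPM, 1.23). Neutrophils held the highest level in both libraries, 926 and 781 CPM, and were the 1 class with an interval below 0 (−0.24, −0.31 to −0.18). With scaling by the median ratio that value turned to 0.09. Monocytes/macrophages had nearly the same level in both (447 and 458 CPM, 0.03, −0.01 to 0.07).

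*Rgs16*, induced on T cell activation and an inhibitor of chemokine-directed migration (ENSMUSG00000026475, chr1:153740349-153745468, plus strand), was largely a T cell transcript. In 12 of 18 classes, γδ T cells among them, it was below the expression limits. Outside T cells, NK cells (8.63 and 11.9 CPM) and CAFs met them. CD8-gated T cells had 30.9 CPM in PBS (120 UMIs) and 68.5 CPM in anti–PD-1 (565 UMIs), a ratio of 1.03 (0.78 to 1.29) that was just past the fold. It was 0.57 when each cell was thinned to 1000 UMIs, 2.15 in Y-linked cells and 1.69 where both *Cd8a* and *Cd8b1* UMIs were required. CD4 T cells (99.5 and 61.9 CPM) and regulatory T cells (113 and 61.1 CPM) ran the other way, with ratios of −0.64 (−0.89 to −0.40) and −0.84 (−1.24 to −0.45). CD8-gated T cells had less *Rgs16* than CD4 T cells in PBS (log2 ratio of the classes −1.54, −1.83 to −1.26) and a level that could not be told apart from theirs in anti–PD-1 (0.14, −0.07 to 0.35). *Gm28513* overlaps *Rgs16* exons on the other strand, and its reads cannot be told apart.

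*Vps37b* encodes a subunit of ESCRT-I, the complex that sorts ubiquitylated membrane proteins toward lysosomes (ENSMUSG00000066278, chr5:124004641-124032270, minus strand). The level in CD8-gated T cells was 143 CPM in PBS (554 UMIs) and 855 CPM in anti–PD-1 (7052 UMIs), a ratio of 2.54 (2.42 to 2.67), with an interval that overlapped that of *Nfil3*. It was past the fold in 17 of 18 classes, the exception being Kupffer cells (60.9 and 111 CPM, 0.81). Regulatory T cells gave the largest ratio by value, 3.46, at 49.5 and 596 CPM, and CD4 T cells gave 3.34, at 79.6 and 854 CPM. NK cells (234 and 1541 CPM) and γδ T cells (208 and 1528 CPM) held the highest levels in both libraries, and in each library these 2 overlapped. Plasma cells had 7 and 68 UMIs, 4.15 and 50.9 CPM. In Y-linked CD8-gated T cells the ratio was 2.36. *Vps37b* exons overlap those of *Hip1r* on the other strand, so reads of the 2 cannot be told apart without strand.

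CD8-gated T cells were divided into activated cells, with a UMI of *Pdcd1*, *Gzmb*, *Gzmk*, *Ifng*, *Lag3* or *Havcr2* (505 in PBS and 965 in anti–PD-1), and the rest, with none of these UMIs (548 and 590). *Rgs1* and *Rgs16* followed this division within each library. *Rgs1* was higher in activated cells by a log2 ratio of 2.06 (1.89 to 2.22) in PBS and 1.33 (1.20 to 1.46) in anti–PD-1, with 808 against 190 CPM and 567 against 223 CPM. *Rgs16* had 114 UMIs in activated and 6 in the other cells in PBS, and 540 and 25 in anti–PD-1, which are 57.7 against 3.14 CPM and 94.7 against 9.81 CPM. *Crem* (0.74, 0.33 to 1.16) and *Nfil3* (1.17, 0.63 to 1.70) were also higher in activated cells in PBS, and so was *Rgs2* (0.51, 0.29 to 0.74). In anti–PD-1 *Nfil3* was again higher in activated cells (0.56, 0.37 to 0.76), and the intervals for *Crem* (−0.16, −0.32 to 0.01) and *Rgs2* (0.03, −0.10 to 0.15) included 0. *Vps37b* ran differently. Its levels overlapped in PBS (134 and 152 CPM, −0.18, −0.41 to 0.06), and in anti–PD-1 the cells that were not activated had the higher one (647 and 1321 CPM, −1.02, −1.09 to −0.96). *Ramp1* was lower in activated cells of both libraries, by −0.78 (−1.06 to −0.50) in PBS and −1.50 (−1.77 to −1.22) in anti–PD-1. The division is a UMI call in cells of unequal depth, with median UMIs of 3016 and 4597 in activated and 2976 and 3965 in the other cells.

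Between the libraries, *Crem*, *Nfil3*, *Vps37b* and *Pde4b* were past the fold in both sets of cells, where 3.6% of all genes in activated and 4.21% in the other cells were. *Crem* went from 54.2 to 157 CPM in activated cells (1.45) and from 30.3 to 175 CPM in the others (2.35), where the PBS value rested on 58 UMIs. *Nfil3* gave 2.02 in activated and 2.64 in the other cells, and *Vps37b* 2.23 and 3.08. *Pde4b* was at 53.2 and 117 CPM in activated cells and 52.3 and 124 CPM in the others, and the levels of the 2 sets overlapped in each library. *Rgs16* was past the fold in neither set, with 57.7 and 94.7 CPM in activated cells (0.67, 0.40 to 0.95) and 3.14 and 9.81 CPM in the others (0.86, 0.20 to 1.43), beside activated cells numbering 505 of 1053 in PBS and 965 of 1555 in anti–PD-1. *Rgs2* was at the limit of the fold in cells that were not activated (137 and 279 CPM, 1.00, 0.81 to 1.21) and short of it in activated cells (197 and 284 CPM, 0.52, 0.36 to 0.68). *Rgs1* was lower in activated cells of the anti–PD-1 library (808 and 567 CPM, −0.51, −0.59 to −0.42) and slightly higher in the others (190 and 223 CPM, 0.22, 0.03 to 0.41). *Ramp1* was lower in both, with 78.0 and 26.1 CPM in activated cells (−1.41, −1.71 to −1.12) and 138 and 82.8 CPM in the others (−0.70, −0.95 to −0.45), the latter short of the fold. No test of the difference between the sets could be made with 1 library per group.

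**Figure D3:**
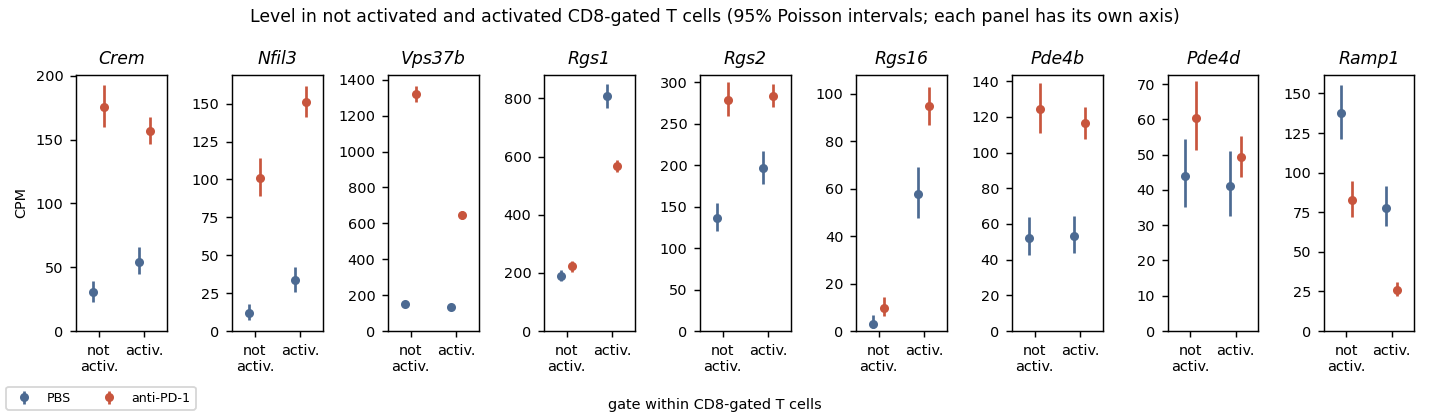
Level (CPM, a separate linear axis for each gene) in CD8-gated T cells that were not activated (left in each panel) and activated (right), with blue points for PBS, red points for anti–PD-1 and bars for 95% Poisson intervals, 1 library per group. *Rgs1* and *Rgs16* are higher in activated cells of both libraries, and *Vps37b* is highest in anti–PD-1 cells that were not activated (1321 CPM).

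The 9 genes were also counted by cell. Because the libraries differ in depth (median 3003 UMIs in CD8-gated T cells of PBS and 4223 in anti–PD-1), each cell was thinned to 1000 UMIs, which left 1044 and 1539 cells, 9 and 16 cells being too shallow. *Vps37b* was then detected in 13.7% of cells in PBS and 53.7% in anti–PD-1, a difference of 40.0 percentage points (36.6 to 43.2). *Crem* was detected in 3.83% and 13.9%, *Nfil3* in 2.30% and 11.9%, and *Pde4b* in 5.84% and 11.4%. *Rgs2* went from 15.5% to 22.7%, and *Ramp1* from 7.28% to 3.31%, a difference of −3.97 points (−5.90 to −2.15). For *Rgs1* (26.7% and 29.5%), *Rgs16* (3.07% and 4.61%) and *Pde4d* (4.69% and 6.56%) the interval of the difference included 0. At 2000 UMIs per cell it lay above 0 for *Rgs16* (3.23 points, 1.00 to 5.35) and *Pde4d* (2.94 points, 0.42 to 5.35). Without thinning, the *Vps37b* shares were 34.0% and 86.9%, and those of *Crem* 11.5% and 39.9%.

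Tumor and biliary epithelial cells were counted in the same way, as a class outside the T cell lineage. Whether they express these genes themselves was not tested. In tumor and biliary epithelial cells thinned the same way (1618 and 1017 cells, median 2048 and 1400 UMIs before thinning), *Rgs16* was detected in 0 cells in PBS, which allows up to 0.185%, and in 0.393% in anti–PD-1. This limits the cells with a UMI at this depth, not the cells that hold the transcript. The share of CD8-gated T cells with a *Rgs16* UMI was above these in each library. *Vps37b* was detected in 5.87% and 14.0% of epithelial cells, *Nfil3* in 1.73% and 8.65% and *Crem* in 3.34% and 6.39%. The PBS shares of *Crem* and *Nfil3* in CD8-gated T cells had intervals that overlapped the epithelial ones, so the share alone does not set these classes apart at this depth. The same holds for *Pde4d* in PBS (3.77% of epithelial cells) and for *Rgs2* in both libraries, since *Rgs2* was detected in 14.7% and 21.6% of epithelial cells. *Ramp1* was detected in 8.90% of epithelial cells in PBS, with an interval that overlapped that of CD8-gated T cells, and in anti–PD-1 its share in CD8-gated T cells (3.31%, 2.48 to 4.33) lay below the epithelial one (4.62 to 7.64). The part of free RNA in these shares was not tested.

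**Figure D4:**
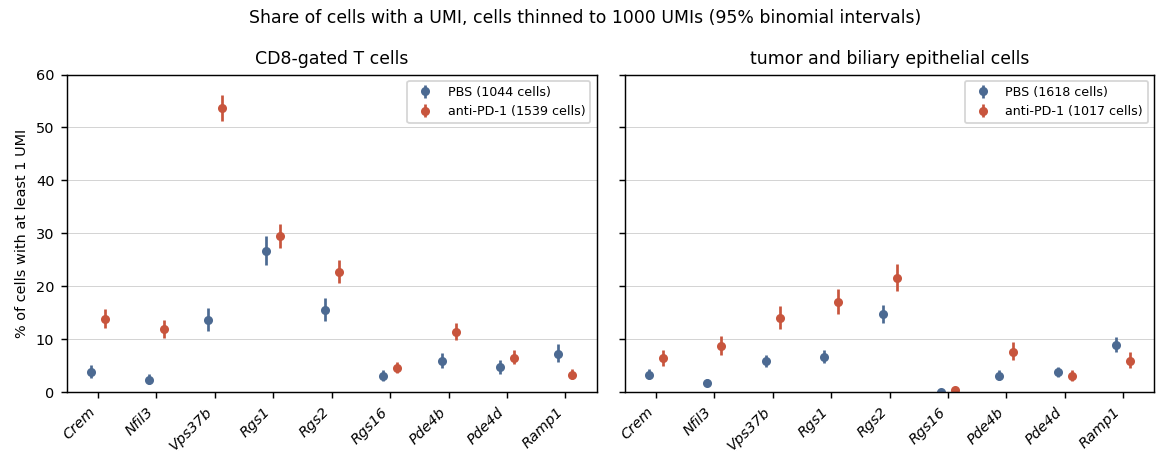
Share of cells (%) with at least 1 UMI of each gene after thinning every cell to 1000 UMIs, in CD8-gated T cells (left) and tumor and biliary epithelial cells (right), with blue points for PBS, red points for anti–PD-1 and bars for 95% exact binomial intervals. *Vps37b* in CD8-gated T cells is at 13.7% in PBS and 53.7% in anti–PD-1, against 5.87% and 14.0% in epithelial cells.

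After thinning, most cells had a UMI of few or none of the 9 genes. Thinning lowers the share of cells with a UMI, so these counts do not show how many of the genes a cell expresses. In CD8-gated T cells of anti–PD-1, *Vps37b* was detected in 53.7% of thinned cells and in 86.9% without thinning. For *Rgs1* these shares were 29.5% and 59.9%. Among thinned CD8-gated T cells, 49.5% in PBS and 17.4% in anti–PD-1 had no UMI of any of the 9 genes, and 0.192% and 1.04% had 5 or more. In NK cells, 32.2% and 4.69% had none. Within the anti–PD-1 library, *Vps37b* was detected in 64.5% of CD8-gated T cells with a *Crem* UMI and in 51.9% of those without.

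The other genes of the pathway were read from lists of receptors, enzymes, targets and related families, described by counts. In CD8-gated T cells, 11 of 21 cAMP receptor and cyclase genes met the expression limits and 0 were past the fold, with a median log2 ratio of −0.04 against −0.10 for all genes. Of 8 other genes of CGRP and adrenomedullin signaling, 3 met the limits, *Calcrl*, *Ramp3* and *Crcp*, and 0 were past the fold (median −0.04). The ligand genes did not meet them. *Calcrl*, the receptor partner of *Ramp1*, named here outside the naming rule and after its values were seen, had 11.6 and 8.85 CPM on 45 and 73 UMIs. *Ramp3*, a relative of *Ramp1* named in the same way, had 11.6 and 27.9 CPM on 45 and 230 UMIs (0.99, 0.64 to 1.33), just short of the fold, and was past it in CD4 T cells (17.8 and 72.0 CPM, 1.76) and regulatory T cells (13.5 and 35.4 CPM, 1.13). Protein kinase A, EPAC and CREB genes gave 0 of 14 (−0.09), and other phosphodiesterases 0 of 6 (−0.33). Among signal terminators, other RGS genes gave 0 of 6 (−0.42). Other ESCRT-I subunits gave 0 of 7 (−0.09). Of 7 G alpha genes, 1 was higher, *Gna15*, a Gq-family subunit of blood cells, with 19.0 and 46.8 CPM (1.11).

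Of 16 genes known to respond to cAMP and to receptor activation, 10 were past the fold in the higher direction and 0 in the lower, against 1.83% and 1.01% of all genes, with a median of 1.43. This list, like the others, was chosen with earlier results of these libraries known, so its count is a description. *Nr4a3* (14.7 and 146 CPM, 2.94), *Nr4a1* (63.8 and 419 CPM, 2.62) and *Nr4a2* (78.5 and 335 CPM, 2.02), orphan nuclear receptors induced by antigen receptor and cAMP signals, led the list. Of 6 clock genes related to NFIL3, *Bhlhe40* (116 and 327 CPM, 1.46) and *Per1* (53.8 and 149 CPM, 1.39) were higher. Of 20 genes that tissue dissociation is known to induce, 5 were past the fold in the higher direction and 0 in the lower, beside the same shares of 1.83% and 1.01%, with a median of 0.67, and their summed level was 10092 CPM in PBS and 14349 CPM in anti–PD-1. *Fosb* (26.5 and 82.1 CPM, 1.47), *Nfkbia* (412 and 1063 CPM, 1.36) and *Junb* (949 and 2425 CPM, 1.35) led it. *Fosb*, *Junb* and several other genes stand in both the cAMP response list and the dissociation list, so these lists are not independent. *Per1* stands in both the cAMP response list and the clock list. The part of dissociation stress in the levels of the 9 genes was not tested.

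**Figure D5:**
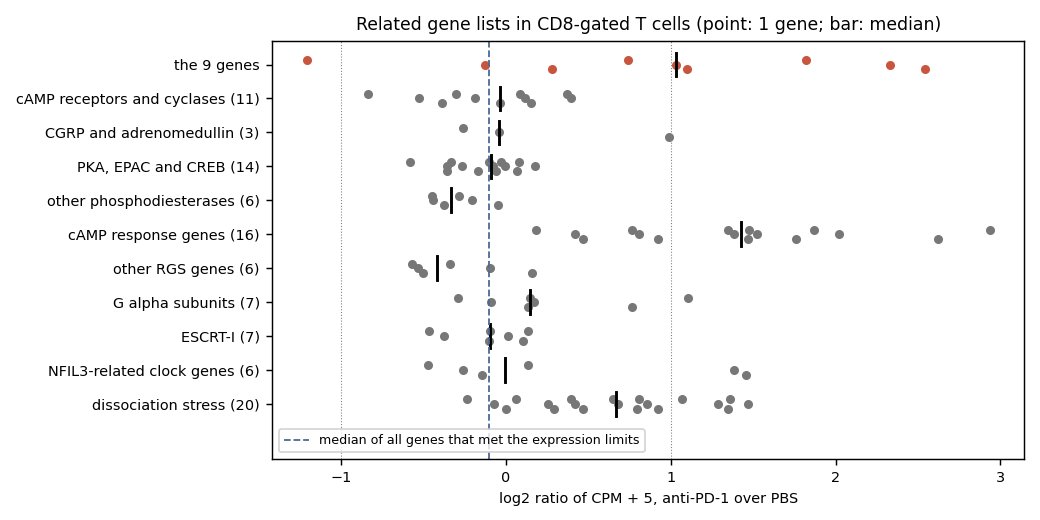
Log2 ratio (anti–PD-1 over PBS, CPM + 5) of each gene that met the expression limits in CD8-gated T cells, 1 point per gene, with a black bar at the median of each list and a dashed line at the median of all 9993 genes (−0.10); the number of genes is in parentheses. The cAMP response genes lie above 0 in 16 of 16, while the medians of the other phosphodiesterases (−0.33) and other RGS genes (−0.42) lie below the dashed line. The lists were chosen with earlier results of these libraries known.

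Outside CD8-gated T cells, counts past the fold were read beside the share of all genes in each class. In T cells without a CD8 UMI, 4 of the 9 genes were higher and 1 lower (2.74% of all genes past the fold), and in NK cells 5 and 1 (4.52%). In B cells 3 of the 8 genes that met the limits were higher (3.73%), namely *Crem*, *Nfil3* and *Vps37b*. In neutrophils 4 of 8 were higher (6.53%), in monocytes/macrophages 5 of 8 (3.92%), in Kupffer cells 2 of 8 (2.29%) and in tumor and biliary epithelial cells 5 of 8 (5.25%). Epithelial cells were divided too, with 1488 PBS and 194 anti–PD-1 cells in cluster 8 and 596 and 2127 in cluster 4, of which 49.1% were gated as epithelial. No gate held 50% of cluster 4, so it was left without a class. Classes from clusters thus kept only clusters 8 and 16 as epithelial, the latter with 235 PBS and 165 anti–PD-1 cells. In tumor and biliary epithelial cells the count was 3 with these cluster classes, and 3 when cells with markers of another lineage were left out. None of the 8 in these last 5 classes was lower past the fold. Of the 20 dissociation genes, 12 were past the fold in the higher direction in monocytes/macrophages, 10 in Kupffer cells and 13 in tumor and biliary epithelial cells, against 9 in regulatory T cells, 8 in NK cells, 6 in T cells without a CD8 UMI, 6 in CD4 T cells, 5 in neutrophils, where 2 were lower, and 3 in B cells. Their part in these counts was not tested. In Y-linked cells, 3 genes were past the fold in T cells without a CD8 UMI and 3 in NK cells. *Crem*, *Nfil3* and *Vps37b* were the 3 in both. The shares of all genes above belong to the main gates. Counts in Y-linked cells, under other gates, and in regulatory and CD4 T cells therefore stand here without a share of their own.

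The genes whose levels ran closest to each member were found over 36 points, 18 classes in each of the 2 libraries, by Pearson's r of log2(CPM + 5) among 9543 genes. The points share libraries, so r is a description. The difference between the libraries, which took part in the choice of the 9 genes, also enters r. *Crem* ran with *Ubald2* (0.86), *Tex30* (0.84) and, among the 9 genes, *Vps37b* (0.83), the closest pair of the set. *Nfil3* ran with *Ifrd1* (0.90), *Coq10b* and *Nfkbiz* (0.85 each), and *Vps37b* with *Gtf2b*, *Ubb* (0.86 each) and *Polg2* (0.85). *Pde4b* ran with *Kdm6b* (0.82), *Elmsan1* (0.81) and *Coq10b* (0.79), and *Pde4d* with *Plcg1* (0.81), *Utrn* (0.79) and *Rnf19a* (0.77). *Rgs1* ran with *Epsti1* (0.86), *Lrch4* and *Bcl2a1b* (0.81 each), and *Rgs2* with *Arpc1b* (0.87), *Irak2* and *Arpc2* (0.86 each). *Rgs16* ran with *Penk* (0.91), *A430093F15Rik* (0.90) and *Trac* (0.89), the last of which is a marker of the T cell gate. *Ramp1* had the weakest best matches, *Sept9* (0.72), *Ech1* and *Prkag2* (0.71 each), and its r with *Pde4b* was −0.15.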

How the data were processed

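RNA of dissociated livers was sequenced per cell in 2 libraries made with the Singleron GEXSCOPE kit. The authors deposited a matrix per library of whole-number UMI counts, without normalization, made with the Singleron software against mm10. Its version, the annotation and the handling of strand are not given in the sources used here. The submitters' processing notes also name Seurat 4.3. Of the 32589 gene IDs, 32445 (99.6%) matched GENCODE vM21, from which coordinates came. The total count was 121713441 UMIs in 19397 PBS barcodes and 100807037 UMIs in 19451 anti–PD-1 barcodes.

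Kept cells had 500 to 5000 genes and no more than 10% of UMIs from mitochondria (80.1% and 84.1%). Each cell took the class with most of 6 markers, at least 2, and ties went by their summed UMIs. Cells still tied were left without a class. A cell placed with monocytes/macrophages was moved to Kupffer cells if it held at least 2 Kupffer markers. The split of CD8-gated T cells into activated and other cells was set after seeing the data, and a planned finer division is not reported here. Because UMIs of some markers were spread over many cells, *S100a8* and *S100a9* counted only at 30 or more UMIs per 10000 of a cell and Kupffer markers only with *Clec4f* at 5 or more. These limits and the scoring rule were set after seeing marker values in the cells. Doublets were kept. Scrublet's automatic threshold marked 0 cells, so the top 5% of scores (751 and 805 cells) served as an alternative. In addition, 35.7% of PBS and 35.5% of anti–PD-1 cells held at least 2 markers of another lineage. Within each library, the UMIs of a class were added up and expressed as CPM. Poisson intervals of levels and binomial (Clopper-Pearson) intervals of shares are exact at 95%. Those of log2 ratios were combined from 2 exact Poisson intervals. All cover counting error only. The limit printed for a count of 0 is 3 counts, which is not the end of an exact interval. With 1 library per group no test was made. UMI levels of different genes were not compared, since capture differs by gene.

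The 9 genes and all gene lists were chosen with earlier results of these data known. Genes named in the text were the 9 genes, at most 3 genes past the fold per list in CD8-gated T cells, and the 3 genes of highest r with each member. Alternatives were another pseudocount (1 CPM), scaling, cell limits, gates, doublet calls, thinning, sex-linked UMIs and Leiden clusters (2000 variable genes, 30 principal components, 15 neighbours, resolution 1). Tools were Python 3.11.15, numpy 2.4.6, scipy 1.17.1, pandas 2.3.3, scanpy 1.11.5, scikit-learn 1.9.0, leidenalg 0.10.2, igraph 0.11.9 and matplotlib 3.10.9.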

Additional observations from a re-analysis of the deposited data

How the results depend on the processing

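No paired analysis was possible because each group has 1 library, and for the same reason no replicate could be left out. Ratios were recomputed in 8 main classes, and no ratio past the fold there changed sign under an alternative. Ratios short of the fold did change sign for *Rgs1*, *Rgs2*, *Rgs16*, *Pde4d* and *Ramp1* in at least 1 class each. Those of the other classes were not recomputed. The count of genes past the fold in CD8-gated T cells was 5 or 6 under all 12 alternatives, against 6 as reported. The share of all genes under each alternative is not given here. Among recomputed counts of genes past the fold, 78 stayed within 1.5 times the reported one and 4 did not. The 4 were Y-linked cells, with 3 genes in T cells without a CD8 UMI and 3 in NK cells, and tumor and biliary epithelial cells, with 3 genes when cells with markers of another lineage were left out and 3 when classes came from clusters. There, *Crem* (0.93 and 0.65) and *Vps37b* (0.99 and 0.96) were short of the fold. Of the recomputed ratios, 525 moved by less than counting error and 160 by more. The median log2 ratio over genes was −0.33 in neutrophils, −0.08 in tumor and biliary epithelial cells and between these in the other 6, and scaling by it raised every recomputed ratio, by less than that size for genes at low levels since 5 CPM is added. The cause of these moves was not tested.

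Differences in the share of CD8-gated T cells with a UMI depended on depth for most of the genes. With 2000 UMIs per cell they were 16.2 percentage points for *Crem*, 16.4 for *Nfil3*, 47.8 for *Vps37b*, 12.7 for *Rgs2*, 3.23 for *Rgs16*, 10.2 for *Pde4b* and 2.94 for *Pde4d*, and the intervals of *Rgs16* and *Pde4d* then lay above 0. Without thinning they were 28.4 for *Crem*, 30.6 for *Nfil3*, 52.9 for *Vps37b*, 10.1 for *Rgs1*, 24.9 for *Rgs2*, 7.73 for *Rgs16*, 20.6 for *Pde4b* and 8.13 for *Pde4d*. For *Rgs1* the difference with 2000 UMIs was 2.60 points, and its interval included 0 (−1.57 to 6.75). The *Ramp1* difference moved little, with −3.97 points at 1000 UMIs, −4.06 at 2000 and −3.28 without thinning, and each interval lay below 0.

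Sex-linked RNA, animal and library cannot be told apart from treatment.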

Other observations

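UMIs of *Calca*, which encodes CGRP and calcitonin, differed between the libraries in lymphocyte classes. The gene was singled out after its values were seen. It had 9 UMIs in PBS and 108 in anti–PD-1 in T cells without a CD8 UMI, 1.16 and 12.9 CPM (log2 ratio 1.54, 95% Poisson interval 1.24 to 1.79). NK cells had 7 and 69 UMIs, 4.32 and 21.6 CPM, and regulatory T cells 0 and 26 UMIs. CD8-gated T cells had 1 and 52 UMIs, 0.257 and 6.31 CPM, close to neutrophils with 3 and 52 UMIs, 1.05 and 5.71 CPM, and Kupffer cells had 1 and 20 UMIs. B cells ran the other way on 18 and 4 UMIs, and tumor and biliary epithelial cells had 22 and 3. The part of free RNA in these UMIs was not tested.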
